A study of Mus musculus with 12 samples.

Results

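The integrated stress response was described through 10 genes chosen by name: the eIF2α kinase genes Eif2ak1, Eif2ak2, Eif2ak3 and Eif2ak4, the kinase substrate gene Eif2s1, the phosphatase subunit genes Ppp1r15a and Ppp1r15b, and the transcription factor genes Atf4, Atf5 and Cebpg. All 10 were found among the 34866 genes of the deposited table, each under 1 identifier, and all 10 were among the 12504 genes that averaged 1 TPM or more over the 12 libraries (TPM, a length-adjusted share of the transcripts in a library scaled to a fixed sum). They were chosen for their known roles, not by a threshold on measured values, although earlier results of these libraries were known at the time. The libraries were made from polyadenylated RNA of immortalized mouse embryonic fibroblasts (MEFs), 3 libraries for each sex and genotype: WT (Sirt3+/+) and KO (Sirt3-/-) MEFs from male and from female embryos. WT embryos were of the 129S1/SvImJ strain and KO embryos came from a Sirt3 knockout stock, fibroblasts were taken at embryonic day 13 from single embryos of known sex, and every group carries the SV40 construct used for immortalization. Cells at passage 6 were seeded in triplicate wells and collected after 48 h with no further treatment, so each group is untreated. The sources used here do not say how many lines made up a group. If each group is 1 line, the effects of line, sex and genotype cannot be told apart, and p-values then measure only the spread between wells. WT and KO embryos came from different stocks, so genotype and stock cannot be told apart at any number of lines.

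In the integrated stress response, different stresses activate different kinases that all phosphorylate the α subunit of the initiation factor eIF2. Phosphorylated eIF2 inhibits its own exchange factor eIF2B, so most translation falls, while the mRNAs of Atf4 and Atf5, whose upstream reading frames normally hold ribosomes back, are translated more. Atf4 then raises transcription of amino acid and redox genes and of Ppp1r15a, whose product brings a phosphatase back to eIF2α. The values below are mRNA levels and measure neither phosphorylation nor translation.

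Sirt3 itself was not lower in the libraries labelled KO. It averaged 7.61 ± 1.30 TPM in male WT, 10.3 ± 1.19 in male KO, 7.90 ± 0.695 in female WT and 8.27 ± 0.749 in female KO (SD, n = 3 each), and neither sex passed (limma adjusted p = 0.0981 in males, 0.772 in females). The deposited values are per gene and do not show whether a part of the Sirt3 transcript is missing. The paper also shows an immunoblot of Sirt3 protein in MEFs, whose outcome its text does not state. The term KO is used in the text for the label alone. The Y-linked gene Ddx3y followed the labels of sex. Between 12256 and 12637 genes reached 1 TPM in a library, and read totals are unknown because TPM do not hold them. Of 10 fibroblast markers 9 averaged at least 1 TPM in each group, all but Lum, and their summed level was 9087 to 10204 TPM in male WT, 11429 to 12126 in male KO, 7937 to 8124 in female WT and 9710 to 10044 in female KO. The summed level of 6 epithelial markers moved with the groups, from 76.1 to 77.8 TPM in male WT, 7.90 to 8.78 in male KO, 19.8 to 22.9 in female WT and 7.40 to 10.3 in female KO. Krt19, Krt18 and Epcam made up nearly all of it, Cdh1, Cldn4 and Krt8 averaged under 1 TPM in every group, and Cldn4 was at 0 in all male KO libraries. The part of the epithelial markers in the results below was not tested. The 5 endothelial markers summed to 1.97 to 4.13 TPM in male WT, 1.56 to 1.88 in male KO, 5.03 to 5.89 in female WT and 1.98 to 2.74 in female KO. Among them Kdr fell in female KO MEFs (log2 difference -1.06, limma adjusted p = 0.00368). The 6 blood cell markers summed to 4.93 to 8.08, 6.10 to 11.4, 6.38 to 9.91 and 4.18 to 7.66 TPM in these groups. Csf1r, a blood cell marker, averaged 0.208 TPM in male WT, 1.41 in male KO, 0.164 in female WT and 0.287 in female KO. Of the 9 fibroblast markers tested, 4 were higher in male KO and 7 in female KO MEFs, and 0 were lower (limma adjusted p under 0.05). Over all genes 10.7% and 5.63% were higher. The part of the endothelial, blood cell and fibroblast markers was not tested either.

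Male KO MEFs differed from male WT MEFs in 4 of the 10 genes: Atf4, Atf5 and Eif2ak3 rose and Eif2ak2 fell. Over all tested genes 21.6% passed in this comparison, 10.7% higher and 10.9% lower in KO. The median of the absolute log2 differences was 0.30 over the 10 genes and 0.17 over all 12504. A gene passed with an adjusted p under 0.05 (limma on log2(TPM+1), Benjamini-Hochberg over all 12504 genes), and log2 differences below are on that scale.

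Female KO MEFs differed from female WT MEFs in 1 of the 10 genes, Atf4, which was slightly lower. Over all tested genes 11.5% passed, 5.63% higher and 5.84% lower in KO. These were 704 higher and 730 lower genes, and 841 higher and 577 lower with median-of-ratios scaling. The median absolute log2 difference of the 10 genes was 0.12, against 0.13 over all genes. The sex by genotype interaction, which asks whether the KO-WT difference is itself different in males and females, passed for 3 of the 10 genes (Atf4 and Atf5 more positive in males, Eif2ak2 more negative), beside 13.0% of all genes (6.70% more positive and 6.33% more negative in males). Between the sexes, only Atf4 of the 10 passed among WT MEFs, where it was lower in males (12.8% of all genes, 6.26% higher and 6.56% lower in males). Among KO MEFs Atf4, Atf5 and Cebpg were higher in males (16.6% of all genes, 8.17% higher and 8.39% lower). The comparisons between sexes share their libraries with the comparisons between genotypes.

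**Figure D1:**
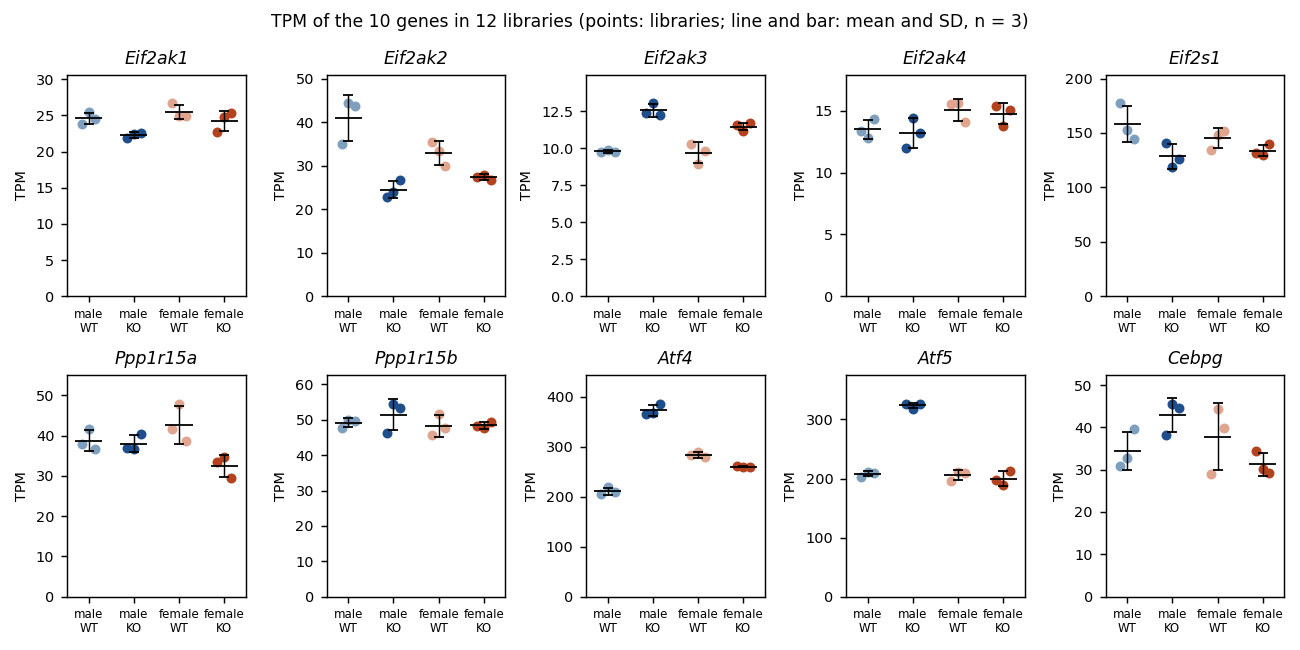
TPM of each of the 10 genes (vertical axis, from 0) in the 3 libraries of each group of MEFs, with points for libraries and a line and bar for the mean and SD. The male KO points of Atf4 (365 to 386 TPM) and Atf5 (318 to 327 TPM) lie above every other library, and those of Eif2ak2 lie lowest as a group.

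The bases just upstream of the RefSeq start sites were read for the genes, since genes that move together may share upstream letters. RefSeq tables of GRCm38.p6 held windows for 9 of the 10 genes, 11 windows in all. Ppp1r15b was not among them. In the 250 bases before each start, 4 motifs were searched on both strands: TGATGNAA, the C/EBP-ATF response element through which Atf4 acts, found in 3.45% of 32851 windows of all genes; TGACGTCA, the cAMP response element, in 1.55%; GAAANNGAA, the core of the interferon-stimulated response element, in 7.13%; and CCAAT, the box bound by the factor NF-Y, in 33.85%. The 5 windows of the 4 genes that passed in male KO MEFs are shown (Atf5 has 2 starts), 5′ to 3′ on the strand of the gene, with every match to these motifs in capitals (ATTGG is CCAAT on the other strand).
Eif2ak2, chr17:78882573-78882822, minus strand: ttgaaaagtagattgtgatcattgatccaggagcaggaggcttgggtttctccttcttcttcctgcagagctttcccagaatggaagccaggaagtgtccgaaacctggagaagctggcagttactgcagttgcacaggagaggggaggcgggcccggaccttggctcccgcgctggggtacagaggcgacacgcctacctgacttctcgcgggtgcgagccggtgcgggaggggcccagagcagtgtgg
Eif2ak3, chr6:70844265-70844514, plus strand: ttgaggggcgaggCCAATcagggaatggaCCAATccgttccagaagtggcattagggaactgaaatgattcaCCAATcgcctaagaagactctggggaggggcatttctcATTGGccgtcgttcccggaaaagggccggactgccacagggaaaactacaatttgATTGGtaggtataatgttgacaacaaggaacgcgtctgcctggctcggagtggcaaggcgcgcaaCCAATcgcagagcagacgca
Atf4, chr15:80254934-80255183, plus strand: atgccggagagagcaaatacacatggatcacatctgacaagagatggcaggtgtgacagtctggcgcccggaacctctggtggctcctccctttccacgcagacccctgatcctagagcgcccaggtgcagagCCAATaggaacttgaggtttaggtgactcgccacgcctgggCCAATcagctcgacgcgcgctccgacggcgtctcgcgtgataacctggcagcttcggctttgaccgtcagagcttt
Atf5, chr7:44816659-44816908, minus strand: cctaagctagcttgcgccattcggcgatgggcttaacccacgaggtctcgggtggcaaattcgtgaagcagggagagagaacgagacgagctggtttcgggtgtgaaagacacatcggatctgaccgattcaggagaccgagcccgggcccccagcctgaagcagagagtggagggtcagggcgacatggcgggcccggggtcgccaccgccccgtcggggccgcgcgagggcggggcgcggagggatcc
Atf5, second start, chr7:44815659-44815908, minus strand: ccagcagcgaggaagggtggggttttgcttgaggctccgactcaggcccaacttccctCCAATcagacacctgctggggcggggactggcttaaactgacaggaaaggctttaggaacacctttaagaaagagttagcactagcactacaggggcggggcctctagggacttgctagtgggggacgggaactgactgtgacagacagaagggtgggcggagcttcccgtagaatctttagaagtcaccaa
Only CCAAT matched among these 5 windows. It was found once in the window of the second Atf5 start, 192 bases before it, and in neither the first Atf5 window nor that of Eif2ak2. Eif2ak3 held 6 matches, the highest count among the 11 windows, and 19 of the 32851 windows reached that count (0.0578%). This share is for a single window, while that of Eif2ak3 was picked out after all 11 were read. Atf4 held 2, a count that 10.1% of windows reached. The first bases of the Atf4 matches lay 117 and 76 bases before the start. No window of the 9 genes held TGATGNAA. TGACGTCA was found once, in Ppp1r15a, 12 bases before the start, and GAAANNGAA was found in Ppp1r15a and Eif2s1 and in 8 of the 12 interferon-stimulated genes with a window. A match is a description of letters, not evidence of binding.

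Eif2ak2 encodes PKR, the kinase activated by double-stranded RNA, and was the gene of this family that changed most. The gene (ENSMUSG00000024079.4) lies on chromosome 17 of GRCm38 from 78852564 to 78882573 on the minus strand. In replicates 1 to 3 it measured 34.9, 44.3 and 43.8 TPM in the male WT libraries and 22.8, 24.0 and 26.6 TPM in male KO libraries. It measured 35.4, 33.4 and 30.0 TPM in female WT and 27.5, 28.0 and 26.7 TPM in female KO libraries. Every KO library lay below every WT library of its sex, and the first male WT library lay well below the others of its group. The mean in male KO MEFs was 0.597 of that in male WT, a log2 difference of -0.72 (SE 0.11, limma adjusted p = 0.00432). In females the ratio was 0.831 and the log2 difference -0.25 (95% interval -0.42 to -0.086, limma adjusted p = 0.0675), which did not pass. The female difference passed in 0 of 8 alternative settings and in 1 of 6 fits with a library left out. This was the fit without the third female WT library (-0.32, limma adjusted p = 0.0467). In bulk samples such as these, fewer cells of a type and less RNA per cell cannot be told apart.

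The sex by genotype interaction of Eif2ak2, its male KO-WT difference minus its female one, was -0.46 on the log2 scale (95% interval -0.76 to -0.16, limma adjusted p = 0.0452). This call rests on the full set of libraries: the adjusted p ran from 0.00708 to 0.104 with 1 library left out and passed in 3 of those 12 fits, and it was 0.0612 with no mean-variance trend and 0.0817 with no filter on low values. The order of the groups by level was male WT, female WT, female KO and male KO, and only the first 2 neighbours overlapped. Male WT exceeded female WT by 0.30 (95% interval 0.049 to 0.56, limma adjusted p = 0.121), and without the first male WT library this rose to 0.41 (limma adjusted p = 0.0361). That was the only 1 of 6 such fits to pass, and 0 of 8 alternative settings passed. Male KO did not pass against female KO (-0.16, limma adjusted p = 0.204).

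Eif2ak2 is itself known as an interferon-stimulated gene, and other genes of that kind are given beside it. Of 15 listed genes 13 were tested, and 11 of them fell in male KO MEFs, beside 10.9% of all genes. The median log2 difference of the 13 was -1.33 (all genes: -0.015). Isg15, a ubiquitin-like protein, fell from 233 ± 17.5 to 66.7 ± 1.19 TPM, and Irf7, a transcription factor of the interferon response, from 28.5 ± 2.83 to 8.27 ± 0.878 TPM (SD, n = 3 each). Stat2 and Mx1 did not pass. In females 4 of the 13 fell (Isg15, Irf9, Bst2 and Adar), beside 5.84% of all genes, and the median was -0.27. In one fit of all 4 groups 7 fell, beside 882 of 12504 genes. The interaction passed for 7 of the 13, all more negative in males, beside 6.33% of all genes. Male WT MEFs exceeded female WT MEFs in 10 of the 13, beside 6.26% of all genes, with a median of 0.88. This comparison and that of male KO with male WT share the male WT libraries. The summed level of the 15 genes ran from 1156 to 1234 TPM in male WT, 473 to 499 in male KO, 641 to 708 in female WT and 507 to 555 in female KO. The male WT libraries stood highest in this sum without overlap. Its largest parts in male WT were Bst2 (mean 623 TPM) and Isg15 (233 TPM). For Eif2ak2 the male and female WT libraries overlapped, as they did for Stat2 and Mx1 of the list. Whether the level of Eif2ak2 follows that of the other genes within a group was not tested.

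**Figure D2:**
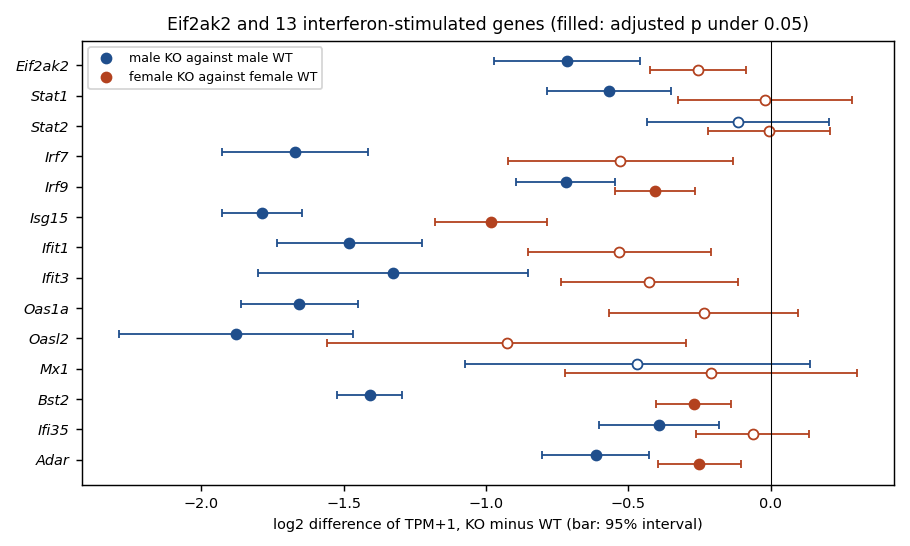
Log2 difference of TPM+1 between KO and WT (horizontal axis) with its 95% interval for Eif2ak2 and 13 interferon-stimulated genes, in males (blue) and females (red), filled where the adjusted p was under 0.05. In males 11 of the 13 genes and Eif2ak2 are filled and lie left of 0, and in females 4 of the 13 are filled.

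Eif2ak3 encodes PERK, the kinase of the endoplasmic reticulum membrane that responds to unfolded protein. The gene (ENSMUSG00000031668.14) lies on chromosome 6 from 70844515 to 70905245 on the plus strand, and its upstream window is the one with 6 CCAAT matches shown above. It had the lowest level of the 10 genes. It measured 9.71, 9.88 and 9.73 TPM in the male WT libraries and 12.4, 13.0 and 12.2 TPM in male KO libraries, and 10.3, 8.94 and 9.83 TPM in female WT and 11.5, 11.2 and 11.7 TPM in female KO libraries. All KO libraries lay above all WT libraries, with male KO highest, then female KO, and the WT groups overlapping each other. The male difference was 0.33 (SE 0.079, limma adjusted p = 0.0253), a ratio of means of 1.28. The female difference was 0.22 (95% interval 0.021 to 0.42, limma adjusted p = 0.148), a ratio of 1.18, and the interaction was 0.11 (95% interval -0.12 to 0.33, limma adjusted p = 0.575). The male call was lost with any 1 of the 6 libraries left out (limma adjusted p from 0.0620 to 0.0798).

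Eif2ak1 encodes HRI, which senses haem and relays mitochondrial stress, and Eif2ak4 encodes GCN2, which senses uncharged tRNA. Neither passed in any of the 5 comparisons. Eif2ak1 (ENSMUSG00000029613.15, chromosome 5 from 143817788 to 143904251, plus strand) measured 23.9, 25.5 and 24.4 TPM in the male WT libraries, 21.9, 22.5 and 22.5 in male KO, 26.7, 25.0 and 24.9 in female WT and 22.7, 24.8 and 25.3 in female KO. The male KO libraries were the lowest group and did not overlap the next group, female KO. The KO-WT difference was -0.14 in males (95% interval -0.28 to 0.0090, limma adjusted p = 0.165) and -0.071 in females (95% interval -0.23 to 0.086, limma adjusted p = 0.538).

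Eif2ak4 (ENSMUSG00000005102.13, chromosome 2 from 118388618 to 118475234, plus strand) measured 13.3, 12.8 and 14.3 TPM in the male WT libraries, 12.01, 14.5 and 13.2 in male KO, 15.6, 15.6 and 14.1 in female WT and 15.4, 13.8 and 15.1 in female KO. Each group overlapped its neighbour in the order of levels, with both female groups above both male groups. The KO-WT difference was -0.028 in males (95% interval -0.25 to 0.20, limma adjusted p = 0.867) and -0.029 in females (95% interval -0.22 to 0.16, limma adjusted p = 0.856).

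With the mean of Eif2ak2 lower and that of Eif2ak3 higher in KO MEFs, the mean shares of the kinase mRNAs differed between the genotypes. In females neither of these 2 genes passed. The 4 kinases summed to 88.9 ± 6.10 TPM in male WT, 72.6 ± 3.05 in male KO, 83.2 ± 4.54 in female WT and 77.8 ± 0.801 in female KO MEFs (SD, n = 3 each). Eif2ak2 held 46.0% ± 2.91 of the sum in male WT and 33.7% ± 1.71 in male KO, a KO-WT difference of -12.3 percentage points, and it was the largest share in each library. In females its share was 39.5% ± 1.27 in WT and 35.2% ± 1.13 in KO. Eif2ak3 had a share of 11.03% ± 0.727 in WT and 17.3% ± 0.812 in KO males and had 11.7% ± 0.845 in WT and 14.7% ± 0.317 in KO females. Eif2ak1 and Eif2ak4 had shares of 27.7% ± 1.35 and 15.2% ± 1.23 in male WT and of 30.7% ± 0.800 and 18.2% ± 1.16 in male KO. In females the shares of these 2 kinases overlapped between the genotypes. In males all 4 shares were apart, and in females those of Eif2ak2 and Eif2ak3. The shares add up to the whole, so they are not independent of each other, and the higher shares of Eif2ak1 and Eif2ak4 in male KO stood beside TPM that were not higher. The exact two-sided permutation p was 0.1 for each share that did not overlap, the smallest that 3 libraries against 3 allow. Shares within a library do not depend on how libraries are scaled.

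**Figure D3:**
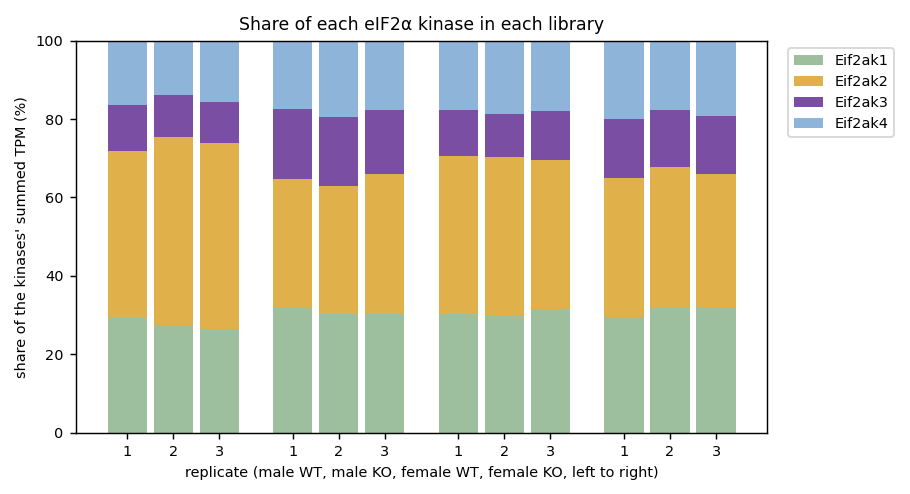
Share of each eIF2α kinase in the summed TPM of the 4 kinases (vertical axis, percent) in each of the 12 libraries (bars, 3 per group). The Eif2ak2 segment takes 42.7% to 47.9% of the bar in male WT and 32.5% to 35.7% in male KO libraries, and the Eif2ak3 segment is wider in KO than in WT libraries of both sexes.

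Eif2s1 encodes eIF2α, the subunit that the kinases phosphorylate. The gene (ENSMUSG00000021116.10) lies on chromosome 12 from 78861819 to 78887010 on the plus strand. It measured 177, 153 and 145 TPM in the male WT libraries, 141, 119 and 126 in male KO, 135, 149 and 152 in female WT and 132, 129.7 and 139.6 in female KO. The male groups did not overlap, although the lowest male WT library was close to the highest male KO library, and the female groups overlapped. The male difference was -0.30 (95% interval -0.51 to -0.084, limma adjusted p = 0.0575), just outside the threshold. It passed with genes under a mean of 5 TPM left out (limma adjusted p = 0.0451), in a fit of all 4 groups (limma adjusted p = 0.0174) and without the first male KO library (limma adjusted p = 0.0472). In all, it passed in 3 of 8 alternative settings and in 1 of 6 fits with a library left out. The limma adjusted p reached 0.172 in the former and 0.148 in the latter. The female difference was -0.12 (95% interval -0.25 to 0.016, limma adjusted p = 0.235).

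Ppp1r15a encodes GADD34, the stress-inducible subunit that directs protein phosphatase 1 to eIF2α, and Ppp1r15b encodes CReP, its constitutive counterpart. Ppp1r15a (ENSMUSG00000040435.12, chromosome 7 from 45522916 to 45526268, minus strand) measured 37.9, 41.6 and 36.5 TPM in the male WT libraries and 36.8, 36.8 and 40.4 in male KO libraries, and 41.7, 47.9 and 38.6 in female WT and 33.5, 34.6 and 29.4 in female KO. The male groups overlapped, while every female KO library was below every other library. The KO-WT difference was -0.38 in females (95% interval -0.61 to -0.15, limma adjusted p = 0.0513) and -0.025 in males (95% interval -0.19 to 0.14, limma adjusted p = 0.843). The female difference passed with genes under a mean of 5 TPM left out (limma adjusted p = 0.0414) and in a fit of all 4 groups (limma adjusted p = 0.0146). In all, it passed in 3 of 8 alternative settings and in 0 of 6 fits with a library left out. The limma adjusted p reached 0.141 in the former and 0.127 in the latter. The interaction was 0.36 (95% interval 0.084 to 0.63, limma adjusted p = 0.0887).

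Ppp1r15b (ENSMUSG00000046062.5, chromosome 1 from 133131143 to 133139783, plus strand) measured 47.6, 50.0 and 49.7 TPM in the male WT libraries, 46.4, 54.5 and 53.4 in male KO, 45.6, 51.6 and 47.6 in female WT and 48.3, 47.6 and 49.3 in female KO. All groups overlapped. The difference was 0.062 in males (95% interval -0.11 to 0.23, limma adjusted p = 0.592) and 0.0046 in females (95% interval -0.13 to 0.14, limma adjusted p = 0.970). Of the summed TPM of both subunits, Ppp1r15a held 44.0% ± 1.53 in male WT and 42.5% ± 2.03 in male KO, with overlap. It held 46.9% ± 1.83 in female WT and 40.1% ± 2.49 in female KO, without overlap (exact two-sided permutation p = 0.1, the smallest possible).

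**Figure D4:**
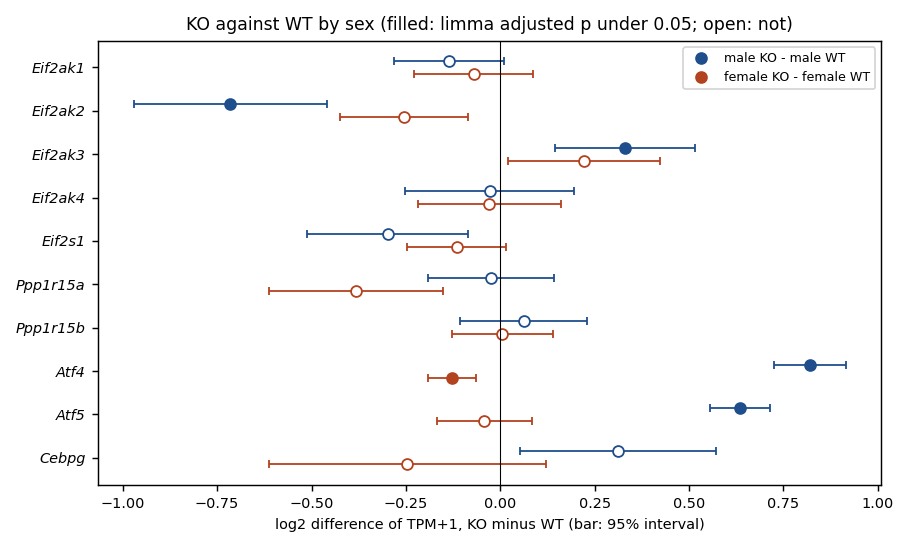
Log2 difference of TPM+1 between KO and WT (horizontal axis) with its 95% interval for the 10 genes, in males (blue) and females (red), filled where the adjusted p was under 0.05. Filled points are Eif2ak2, Eif2ak3, Atf4 and Atf5 in males and Atf4 in females, and the Atf4 points lie on opposite sides of 0 (0.82 and -0.13).

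Atf4, the central transcription factor of the response, had the highest mean level of the 10 genes, at the 95.6 percentile of the tested genes. The gene (ENSMUSG00000042406.8) lies on chromosome 15 from 80255184 to 80257541 on the plus strand. It measured 204, 218 and 209 TPM in the male WT libraries and 365, 368 and 386 TPM in male KO libraries. It measured 283, 289.9 and 278 TPM in female WT and 260.3, 259.6 and 259 TPM in female KO libraries. The 4 groups were apart from each other without overlap, in the order male KO, female WT, female KO and male WT, so the sexes were ordered in opposite ways in the WT and the KO groups. The ratio of means was 1.77 in males and 0.915 in females.

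The male difference of Atf4 was 0.82 (SE 0.040) and stayed past the threshold in each alternative and with any library left out (limma adjusted p at most 0.000839). The female difference was -0.13 (SE 0.027, limma adjusted p = 0.0285). It was lost with median-of-ratios scaling (-0.099, limma adjusted p = 0.0706), with no mean-variance trend (limma adjusted p = 0.131) and with any 1 library left out (limma adjusted p from 0.0587 to 0.0827). Male WT was lower than female WT by a log2 difference of -0.43 (SE 0.036, limma adjusted p = 0.000572), and male KO was higher than female KO by 0.52 (SE 0.032, limma adjusted p = 8.38e-05).

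Atf5 encodes a related factor that is translated in the same manner and is known for the mitochondrial unfolded protein response. The gene (ENSMUSG00000038539.15) lies on chromosome 7 from 44812256 to 44816658 on the minus strand. It measured 203, 212 and 209.9 TPM in the male WT libraries, 327, 318 and 326 in male KO, 196, 211 and 209.9 in female WT and 197, 189 and 213 in female KO. Only the male KO libraries stood apart, and the other 3 groups overlapped. The male difference was 0.63 (SE 0.033, limma adjusted p = 3.55e-05), a ratio of 1.56. The female difference was -0.042 (95% interval -0.17 to 0.084, limma adjusted p = 0.662) and that between the WT sexes 0.017 (95% interval -0.077 to 0.11, limma adjusted p = 0.828). Unlike Atf4, Atf5 thus had no detected difference between male and female WT MEFs, and no test was run of Atf4 against Atf5.

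Cebpg encodes C/EBPγ, a partner with which Atf4 forms dimers. The gene (ENSMUSG00000056216.9, chromosome 7 from 35046422 to 35056573, minus strand) measured 30.9, 32.7 and 39.5 TPM in the male WT libraries, 38.2, 45.6 and 44.7 in male KO, 29.1, 44.4 and 40.0 in female WT and 34.4, 30.3 and 29.3 in female KO. The female WT libraries were spread over most of the whole range, and male KO and female KO did not overlap. Male KO exceeded female KO by 0.44 (SE 0.093, limma adjusted p = 0.0203), a ratio of 1.37. This call was lost with no filter on low values (limma adjusted p = 0.0756), in a fit of all 4 groups (limma adjusted p = 0.0513) and without replicate 2 or 3 of either KO group (limma adjusted p from 0.0606 to 0.0763). The KO-WT difference was 0.31 in males (95% interval 0.053 to 0.57, limma adjusted p = 0.0899) and -0.25 in females (95% interval -0.61 to 0.12, limma adjusted p = 0.356), and the interaction was 0.56 (95% interval 0.11 to 1.01, limma adjusted p = 0.104). Without the first female WT library, which held 29.1 TPM, the interaction was 0.73 (limma adjusted p = 0.0132), and without the third male WT library the male difference was 0.41 (limma adjusted p = 0.0404). With a library left out, the interaction passed in 1 of 12 fits and the male difference in 1 of 6. In alternative settings the interaction passed in 0 of 7 and the male difference in 0 of 8.

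Beyond the 10 genes, 52 other genes of the pathway were listed and all were tested. In male KO MEFs 24 rose and 5 fell, with a median log2 difference of 0.20 (all genes: -0.015). In female KO MEFs 5 rose and 5 fell, with a median of -0.028 (all genes: -0.023). The interaction passed for 24 of the 52, 22 of them more positive in males. Over all genes 10.7% rose and 10.9% fell in males, 5.63% and 5.84% in females, and 13.0% passed the interaction. The lists were drawn up with earlier results of these libraries known and are not independent evidence of a direction.

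The 8 other subunits of eIF2 and of its exchange factor eIF2B held 1 gene that passed in males and none in females. It was Eif2s3x, the X-linked γ subunit (log2 difference -0.18, limma adjusted p = 0.0131). Eif2s3x was 137 ± 3.17 TPM in male WT and 223 ± 2.42 in female WT MEFs (SD, n = 3 each), while its Y-linked counterpart Eif2s3y was 43.8 ± 3.64 TPM in male WT and at 0 in all 6 female libraries. Eif2s3y therefore could not pass in the female comparison, and the count in females rests on the other subunits. The sex difference of Eif2s3x was -0.70 in WT and -0.85 in KO MEFs (limma adjusted p = 3.95e-05 and 1.60e-05). Reads of such close copies can be divided between them by the quantification. The 3 catalytic subunits of protein phosphatase 1, with which the Ppp1r15 proteins act, passed in no comparison of the 5.

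Of 10 genes that activate or restrain the kinases, Impact rose in males and Tarbp2 and Hsp90ab1 fell. Impact, an inhibitor of GCN2 activation, went from 30.0 ± 0.604 to 41.8 ± 0.950 TPM in males (log2 difference 0.47, limma adjusted p = 0.00115) and was 40.9 ± 2.41 in female WT and 38.0 ± 1.47 in female KO (interaction 0.57, limma adjusted p = 0.000384). Male WT was therefore the low group, as it was for Atf4. Tarbp2, an inhibitor of PKR, fell in males by 0.31 on the log2 scale (limma adjusted p = 0.00416). Hspa5, the chaperone that holds PERK inactive, rose in females by 0.20 (limma adjusted p = 0.0223) and differed by 0.10 in males (limma adjusted p = 0.115), and Hsp90ab1, a chaperone that binds kinases, fell in both sexes (male log2 difference -0.17, limma adjusted p = 0.00878; female log2 difference -0.12, limma adjusted p = 0.0235). Dele1 and Oma1, which carry the mitochondrial signal to HRI, differed by 0.20 and 0.44 in males and did not pass (limma adjusted p = 0.137 and 0.200).

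Of the 4 factors for reinitiation and non-canonical initiation, Denr, which acts with Mcts1 after upstream reading frames, fell in both sexes to similar extents (log2 difference -0.33 in each, limma adjusted p = 0.00747 in males and 0.00870 in females, 95% interval of the interaction on the log2 scale -0.17 to 0.17). Mcts1 rose in males (0.20, limma adjusted p = 0.0483), a call lost with no mean-variance trend and in one fit of all 4 groups, and had the same estimate in females without passing (0.20, limma adjusted p = 0.140). Eif2d fell only in males by the test (-0.25, limma adjusted p = 0.0217), and its interaction passed (-0.26, limma adjusted p = 0.0392) but not with median-of-ratios scaling, quantile normalization or no mean-variance trend.

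Among 11 bZIP partners and related factors, 7 rose in males and none fell, with a median of 0.33. Cebpb went from 117 ± 3.86 to 227 ± 10.7 TPM in males (log2 difference 0.95) and was 143 ± 12.5 and 144 ± 6.29 TPM in female WT and KO. Nupr1, a stress-induced chromatin protein, went from 63.0 ± 4.52 to 152 ± 6.14 TPM in males (1.26) and from 44.6 ± 2.39 to 55.1 ± 2.59 TPM in females (0.30, limma adjusted p = 0.0224). Ddit3, which encodes CHOP, rose by 0.33 in males (limma adjusted p = 0.00786). In females Jdp2, Nupr1 and Xbp1 rose and Cebpa fell. Xbp1, the factor of the IRE1 branch of the unfolded protein response, rose by 0.45 in males and 0.50 in females, with an interaction of -0.043 (limma adjusted p = 0.788). Atf3 did not pass in either sex and varied widely between libraries (-1.28 in females, SE 0.33, limma adjusted p = 0.0515).

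Of 16 genes listed as Atf4 targets, 15 rose in male KO MEFs with a median of 0.62, beside 10.7% of all genes. Slc7a11 did not pass (0.45, limma adjusted p = 0.0690). Fgf21 averaged 0.299 TPM in male WT, 4.56 in male KO, 0.872 in female WT and 0.148 in female KO. It was among the tested genes only through the male KO libraries. With genes under a mean of 5 TPM left out, 14 targets were tested and all 14 rose in males. Trib3, a pseudokinase that restrains Atf4, went from 20.7 ± 1.30 to 55.2 ± 3.74 TPM, and Chac1, which degrades glutathione, from 29.7 ± 0.733 to 61.0 ± 2.91 TPM. Asns, asparagine synthetase, went from 95.3 ± 7.22 to 171 ± 13.0 TPM. In female KO MEFs Ddit4 rose, Cth and Stc2 fell and 13 did not pass, with a median of -0.089. Cth, which makes cysteine from cystathionine, was 17.2 ± 1.88 TPM in male WT, 34.8 ± 3.39 in male KO, 34.5 ± 0.0373 in female WT and 20.7 ± 2.67 in female KO. The interaction passed for all 16, each more positive in males (6.70% of all genes), and for 15 with median-of-ratios scaling. Between the WT sexes 7 of the 16 were lower in males and none higher, with a median of -0.28 (6.56% of all genes were lower). Between the KO sexes 12 were higher in males (8.17% of all genes). These comparisons share libraries with the KO-WT comparisons.

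**Figure D5:**
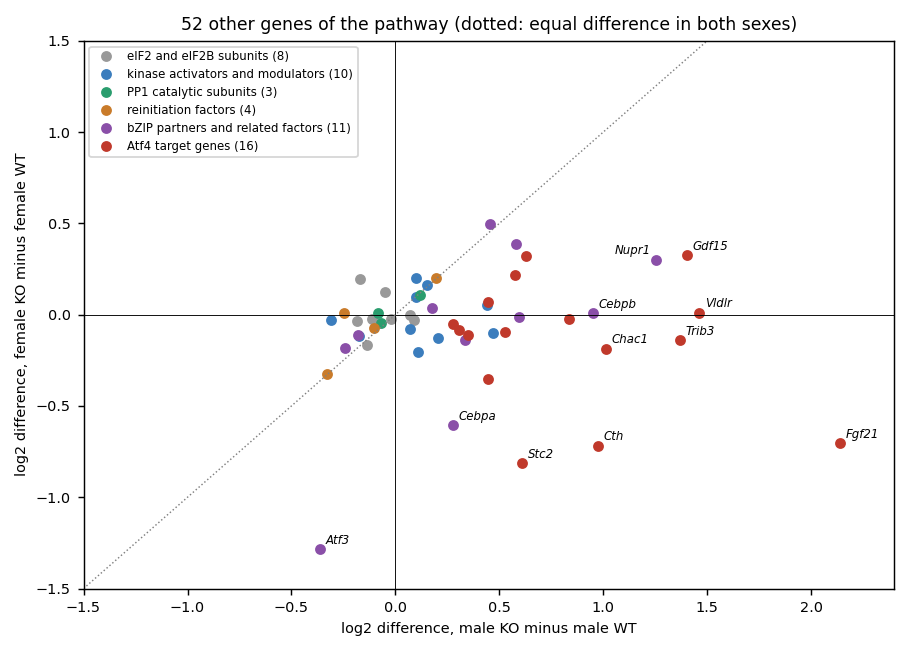
Log2 difference between KO and WT in males (horizontal axis) against that in females (vertical axis) for 52 other genes of the pathway, coloured by list, with a dotted line where both are equal. The 16 Atf4 targets (red) lie right of 0 in males with a median of 0.62 and on both sides of 0 in females with a median of -0.089.

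The genes whose pattern over the 12 libraries was most like that of each called gene were found by the root mean square difference of centred log2(TPM+1). For Atf4, whose own spread was 0.30, these included Slc29a1 (0.081), Csrp2 (0.083), Mt1 (0.088) and Slc1a4 (0.095), against a median of 0.35 over all genes. Slc29a1, a nucleoside transporter, was 134 ± 7.68 TPM in male WT, 227 ± 1.64 in male KO, 168 ± 4.59 in female WT and 150.2 ± 2.11 in female KO, the same order of groups as Atf4. Slc1a4, a carrier of neutral amino acids, was 21.4 ± 1.14, 36.4 ± 0.371, 25.0 ± 1.53 and 23.5 ± 0.959 TPM in the same groups. For Atf5 they were Spcs3 (0.062), H6pd (0.066) and Cebpd (0.067). Spcs3, a signal peptidase subunit, averaged 120.05 ± 4.03 TPM in male WT against 172 ± 3.77 in male KO.

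For Eif2ak2 the nearest genes were Ezr (0.098), Tram1l1 (0.11) and Jun (0.11). None of them is on the interferon list, but the measure also counts the size of a change. Genes that fell much further than Eif2ak2, such as Isg15 (-1.79 in males), cannot be near it by this measure. Ezr, which links membrane and actin, averaged 58.7 ± 7.60 TPM in male WT against 35.1 ± 2.15 in male KO. For Eif2ak3 they were Saraf (0.046), Surf4 (0.048) and Rnpep (0.049), against a spread of Eif2ak3 of 0.15. Surf4, a cargo receptor of the endoplasmic reticulum, was 168 ± 1.19 TPM in male WT, 208 ± 6.09 in male KO, 165 ± 6.36 in female WT and 195 ± 5.94 in female KO. Within the 10 genes, Atf5 stood at position 135 in the order of likeness to Atf4, Eif2ak3 at 484 and Cebpg at 1076, while Eif2ak2 stood at 10941.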

How the data were processed

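RNA-seq of 12 MEF libraries (3 for each sex and genotype) was analysed. The authors deposited TPM per gene, and the submitters' processing notes name Salmon 1.10.1 and the build GRCm38. TPM are normalized for transcript length and to a fixed sum, so they show relative, not absolute, amounts. Groups were taken from the sample labels. TPM were analysed as log2(TPM + 1) with limma 3.58.1 in R 4.3.3 (empirical Bayes with a mean-variance trend), for genes averaging 1 TPM or more, with Benjamini-Hochberg adjustment over all 12504 such genes. Genotypes were compared within each sex from the 6 libraries concerned, sexes within each genotype likewise, and the interaction in one fit of 12 libraries. Shares were compared with the exact two-sided permutation test. All 10 genes, the pathway lists, interferon-stimulated genes and cell markers were chosen with earlier results of these data known. Named genes were the 10, members of the lists, and the nearest genes in pattern to the genes called in males (5 for Atf4, of which 1 is not reported here, and 3 for the others). Upstream windows came from RefSeq, GRCm38.p6. Alternatives were a pseudocount of 0.1, no filter, a filter at an average of 5 TPM, quantile normalization, scaling by the median of ratios, no trend, a replicate block, one fit of all groups, and each library left out. Scripts were tested on simulated data.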

Additional observations from a re-analysis of the deposited data

Results flagged for a closer look

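The KO-WT difference was itself different in males and females for 34 genes among the 10, the other pathway genes and the interferon-stimulated genes, by the sex by genotype interaction of limma with an adjusted p under 0.05 over all 12504 genes. Of the 52 other pathway genes 22 were more positive in males and 2 more negative, and of 13 tested interferon-stimulated genes 7 were more negative. Over all genes 13.0% passed. The lists were chosen with earlier results known. Positive values are more positive in males. Of the 10 genes those that passed were Atf4 (0.95), Atf5 (0.68) and Eif2ak2 (-0.46). Among the modulators of the kinases and the reinitiation factors, the log2 values were 0.57 for Impact, -0.28 for Tarbp2 and -0.26 for Eif2d. Among the bZIP and related factors they were 0.47 for Ddit3, 0.88 for Cebpa, 0.94 for Cebpb, 0.60 for Cebpd and 0.95 for Nupr1.

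All 16 Atf4 targets were more positive in males. The largest was Fgf21 at 2.84, followed by Cth at 1.69, Trib3 at 1.51, Vldlr at 1.45, Stc2 at 1.43, Chac1 at 1.20 and Gdf15 at 1.08. The others were Asns at 0.86, Slc7a11 at 0.80, Aldh18a1 at 0.62, Phgdh at 0.46, Slc3a2 at 0.39, Mthfd2 at 0.38, Sesn2 at 0.36, Psat1 at 0.33 and Ddit4 at 0.30. Fgf21 averaged under 1 TPM in every group but male KO (4.56 TPM) and was tested only through that group. With genes under a mean of 5 TPM left out, 14 targets were tested and all 14 passed. Among the interferon-stimulated genes 7 were more negative in males, with Oas1a at -1.42, Irf7 at -1.14, Bst2 at -1.14, Ifit1 at -0.95, Ifit3 at -0.90, Isg15 at -0.80 and Adar at -0.36. The cell type markers were not counted here, and among them Krt19 (-1.91), Krt18 (-1.24), Col1a2 (-0.50) and Kdr (0.93) passed the same test. With 3 libraries in a group, single libraries were not tested for standing apart.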

How the results depend on the processing

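The calls of Atf4 and Atf5 in males, in the interaction and between the KO sexes, that of Atf4 between the WT sexes and that of Eif2ak2 in males held in every alternative run. In females 1 of the 10 genes passed, against 2 at a mean of at least 5 TPM, 0 with median-of-ratios scaling, 0 with no mean-variance trend, 2 in one fit of all groups and 0 to 1 with a library left out. Of all genes 1434 passed in females, against 1368, 1418, 1141 and 1711 in these settings in turn and 774 to 835 with a library left out. These are of 12504 genes, or of 10051 at a mean of at least 5 TPM. Leaving out a library gave 1 to 2 of the 10 between the WT sexes, beside 1037 to 1243 of 12504 genes. Of the other pathway genes 10 passed in females, against 5 with no filter (1126 of 22401 genes) and 5 to 8 with a library left out. Differences near 0 turned in sign: Eif2ak4 in the interaction was -0.0074 with median-of-ratios scaling and -0.021 with quantile normalization, and Atf5 between the WT sexes was -0.00075 with quantile normalization. With a library left out, Eif2ak4 ran from -0.089 to 0.035 in males, from -0.075 to 0.015 in females and from -0.060 to 0.064 in the interaction, Ppp1r15a from -0.068 to 0.027 in males, and Ppp1r15b from -0.035 to 0.053 in females. Between the WT sexes Atf5 ran from -0.016 to 0.035, Cebpg from -0.29 to 0.0043, Eif2ak3 from -0.039 to 0.054 and Ppp1r15b from -0.013 to 0.074. The female difference in the share of Eif2ak1 ran from -0.0346 to 1.34 percentage points. The cause of these changes was not tested. Same-numbered libraries of different groups did not deviate together (correlations from -0.0571 to 0.0779), so the numbers were not taken as pairs. With the replicate number as a block, 670 of 12504 genes passed in females against 1434 without it. In the other comparisons 2366 passed in males, 1518 in the interaction, 1114 between the WT sexes and 1397 between the KO sexes. Of the 10 genes 4 passed in males, 1 in females, 2 in the interaction, 1 between the WT sexes and 2 between the KO sexes. The genes were not all those called without the block: Eif2ak3 in males (limma adjusted p = 0.0607), Atf4 in females (0.0822), Eif2ak2 in the interaction (0.0665) and Cebpg between the KO sexes (0.0707) did not pass, and Eif2s1 in males (0.0180) and Ppp1r15a in females (0.0376) did. The block also left 2 interferon-stimulated genes lower in females, against 4, and ended the calls of Mcts1 in males and Eif2d in the interaction. Median-of-ratios scaling moved the female split of all genes from 704 higher and 730 lower to 841 higher and 577 lower. TPM carry no read totals, so the precision that depth allows for the lower genes is unknown.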
